A study of Homo sapiens with 10 samples.

Results

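The homologous recombination and Fanconi anemia genes are a set of 35 genes, taken from the count table as the rows whose symbol is on a fixed list. All 35 members were found among 60651 gene rows, and all 35 passed the filter on low counts that 22495 genes passed. RNA was sequenced from 10 libraries of established human cell lines, 2 for each of 5 groups. HT29 is a colorectal cancer line, and t-hESC is labelled as transformed pluripotent stem cells. HT29 cells received the solvent DMSO or 10 µM VXN, and t-hESC cells received DMSO, 1 µM BIX or 10 µM VXN, for 48 hours. VXN is left unexplained in the labels. BIX commonly denotes a compound that blocks G9a and GLP, enzymes that methylate histone H3 at lysine 9. Each line is a single line, so a difference between HT29 and t-hESC is a difference between these lines. The treatment field reads DMSO for every sample, so compounds and doses were taken from the sample titles.

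Homologous recombination repairs a DNA break by copying an intact sister molecule. One set of proteins senses the break and trims its ends, BRCA1, PALB2 and BRCA2 load the recombinase, and helicases and nucleases take the joined molecules apart. The Fanconi pathway removes links between the strands of DNA: a core complex attaches ubiquitin to FANCD2 and FANCI, which then hand over to nucleases and to recombination. A sister copy exists only after replication, and many of these genes are known to be transcribed mainly in dividing cells.

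Total gene counts ran from 13137026 to 24492838 per library, and the common biological coefficient of variation was 0.0207. Levels are given as CPM, read counts scaled to a common library size, and are not compared between genes, since they are not per length. A count of 0 allows up to 0.122 to 0.228 CPM, for counting error only, and the lowest group mean of a member was 2.34 CPM. In bulk RNA fewer expressing cells and less RNA per cell cannot be told apart. Of 12 pluripotency markers 11 were above 1 CPM in t-hESC under each treatment, with ZFP42 under that limit in DMSO. Of 15 markers of colorectal epithelium 13 were above 1 CPM in HT29 under DMSO, and CDX1 and CDH17 were at 0.335 and 0.272 CPM. Of 12 markers of fibroblasts and stroma 8 were above 1 CPM in t-hESC under DMSO. Among these, THY1, VIM and SPARC were at 587, 550 and 261 CPM, COL1A1, COL1A2 and PDGFRB at 33.2, 41.3 and 18.5 CPM, and POSTN and PDGFRA at 1.78 and 1.00 CPM. The other 4, COL3A1, DCN, LUM and FAP, were at 0.341, 0.0235, 0.0235 and 0 CPM.

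VXN lowered most of these genes in HT29. The promoters of 5 members are shown first, as examples and not as the 5 largest changes there. The bases given are the 250 before a RefSeq start (GRCh38.p14), written in the direction of the gene. RAD51AP1, RAD54L and FANCG fell more than 2-fold in HT29 and hold a match to an E2F motif, the sequence bound by the factors that switch on S phase genes. BARD1 had the largest fall among members with a promoter entry, and FANCE was not called. BRIP1, EXO1 and CHEK1 fell more than RAD54L and FANCG, hold no E2F match and are not shown. Capitals mark the E2F match, and none of these windows lies within an annotated gene.
RAD51AP1, chr12:4538640-4538889, plus strand: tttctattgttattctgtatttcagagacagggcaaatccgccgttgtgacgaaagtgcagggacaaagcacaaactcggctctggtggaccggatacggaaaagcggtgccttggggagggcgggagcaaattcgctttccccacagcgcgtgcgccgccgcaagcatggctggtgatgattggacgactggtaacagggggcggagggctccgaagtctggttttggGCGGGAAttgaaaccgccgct
RAD54L, chr1:46247438-46247687, plus strand: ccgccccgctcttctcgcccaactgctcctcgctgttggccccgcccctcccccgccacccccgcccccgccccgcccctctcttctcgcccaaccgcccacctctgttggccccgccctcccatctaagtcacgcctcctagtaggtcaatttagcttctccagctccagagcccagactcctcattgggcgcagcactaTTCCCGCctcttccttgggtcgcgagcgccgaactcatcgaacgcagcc
FANCG, chr9:35079943-35080192, minus strand: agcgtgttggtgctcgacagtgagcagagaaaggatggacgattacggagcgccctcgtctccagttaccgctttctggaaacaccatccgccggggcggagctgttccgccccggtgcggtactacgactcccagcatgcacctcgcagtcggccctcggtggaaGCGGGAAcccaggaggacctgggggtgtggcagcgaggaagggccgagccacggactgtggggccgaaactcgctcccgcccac
BARD1, chr2:214809684-214809933, minus strand: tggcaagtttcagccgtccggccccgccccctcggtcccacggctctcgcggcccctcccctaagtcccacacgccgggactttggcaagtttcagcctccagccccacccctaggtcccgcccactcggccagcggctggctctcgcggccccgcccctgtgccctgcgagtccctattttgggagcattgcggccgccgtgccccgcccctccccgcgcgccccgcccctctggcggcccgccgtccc
FANCE, chr6:35452088-35452337, plus strand: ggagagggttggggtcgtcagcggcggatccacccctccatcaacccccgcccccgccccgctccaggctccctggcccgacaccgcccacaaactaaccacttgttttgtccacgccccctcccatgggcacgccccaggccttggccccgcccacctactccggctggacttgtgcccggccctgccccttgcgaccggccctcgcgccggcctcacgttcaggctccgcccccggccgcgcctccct

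Motifs were searched on both strands. For E2F the letters were TTCGCGC, or else TTGGCGC, or TTCCCGC, or finally TTGCCGC. The cell cycle homology region was searched as TTTGAA, the CCAAT box by the letters of its name and the GC box as GGGCGG. The match in RAD51AP1 began at position -21 from the start, that in RAD54L at -49 and that in FANCG at -84. The promoter table held 31 of the 35 members, with 41 windows. An E2F match was present in 12 of these 41 windows (29.3%) and in 10.9% of all 35116 windows of the table. A CCAAT box was present in 48.8% of member windows and 32% of all windows, and a GC box in 63.4% and 42.6%. The cell cycle homology region was present in 9.76% of member windows and 13.3% of all windows. E2F and GC box matches overlapped in 3 member windows, and E2F and CCAAT matches in 0. Windows of 1 member can overlap, as for RAD54L and CHEK1, so a site can be counted more than once. The windows of the whole table were not limited to genes that passed the filter on low counts, which all members passed. The median log2 fold change under VXN in HT29 was -1.46 over the 10 members with an E2F match and -1.19 over the 21 without. It was -1.46 over the 22 members with a GC box and -0.32 over the 9 without. It was -1.32 over the 16 members with a CCAAT box and -0.82 over the 15 without, and -1.25 over the 4 with the cell cycle homology region and -1.26 over the 27 without. EME1, which was not called, also holds an E2F match, as does BLM, which fell. BARD1, BRIP1, EXO1 and CHEK1, which fell as well, hold none. These are matches of letters and not measured binding sites, and the part of the motifs in the fall was not tested.

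**Figure D1:**
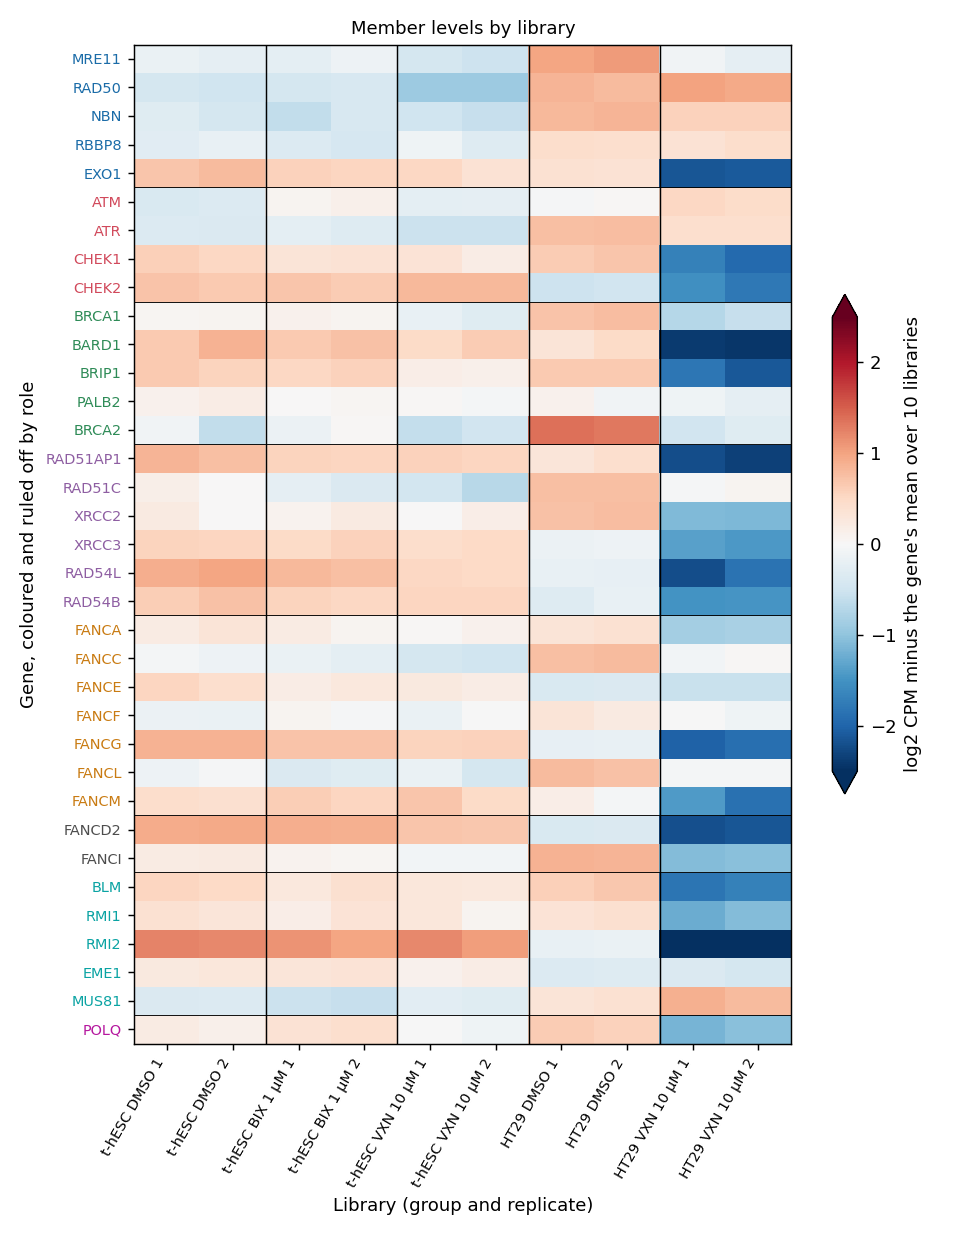
Level of each of the 35 members (rows, coloured and ruled off by role) in each of the 10 libraries (columns), as log2 CPM minus the gene's mean over the libraries, with colours ending at 2.5 either way. HT29 under VXN has the lowest group mean for 23 of the 35 rows. MUS81, ATM and RAD50 are higher under VXN than under DMSO in HT29.

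The question of the first comparison was what VXN changed in HT29. Of the 35 members 29 fell, 3 rose and 3 were not called (edgeR quasi-likelihood test, Benjamini-Hochberg adjusted p under 0.05). The 2 groups did not overlap for 34 members, all 32 called among them. This was not counted over all genes, so it cannot be read as a trait of the members. Over all genes tested 26.9% fell and 33% rose, so 60% were called. The median log2 fold change was -1.26 over the members and 0.055 over all genes. The fall was at least 2-fold for 22 members, against 7.41% of all genes, and at least 4-fold for 7, against 2.3%. Summed over the members, the level was 1745 and 1763 CPM in the DMSO libraries and 894 and 887 CPM in the VXN libraries.

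Among the genes of break sensing and end trimming the members split. EXO1, a nuclease that extends the trimmed end, was at 33.3 and 33 CPM under DMSO and 5.81 and 5.98 CPM under VXN. Both VXN libraries lay far below both DMSO libraries, and the log2 fold change was -2.49 ± 0.088 (SE; edgeR adjusted p = 1.62e-35). MRE11, the nuclease of the complex that binds broken ends, went from 83.1 and 87.5 CPM to 39 and 35.7 CPM. Its partner RAD50 (chromosome 5, 132556977 to 132646349, GRCh38.p14) went the other way, from 58.8 and 56.3 CPM to 65.2 and 63.2 CPM. The log2 fold change of RAD50 was 0.16 ± 0.049 (SE; edgeR adjusted p = 0.00372). The third subunit, NBN, was at 83.4 and 86.4 CPM and then 71 and 71.8 CPM, a change of -0.25 ± 0.047 (SE). RBBP8, which encodes the factor CtIP that starts trimming, was not called, at 73.7 and 73.5 against 70.1 and 73.7 CPM, and these libraries overlapped. The 3 subunits of one complex thus had log2 fold changes of -1.19, 0.16 and -0.25.

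The checkpoint kinases also went apart. CHEK1 (chromosome 11, 125625136 to 125681124), the kinase that holds cells with stalled replication, was at 94.1 and 98.7 CPM under DMSO and at 18.8 and 15.8 CPM under VXN, 5.53-fold lower (log2 fold change -2.47 ± 0.06 SE; edgeR adjusted p = 2.35e-44). CHEK2, which acts after breaks, went from 36.7 and 37.5 CPM to 17.9 and 15.1 CPM. ATM, the kinase upstream of CHEK2 (chromosome 11, 108223067 to 108369102), was higher, at 43.4 and 45.3 CPM under DMSO and 63.3 and 61.2 CPM under VXN (0.49 ± 0.051 SE; edgeR adjusted p = 2.39e-13). ATR, the kinase upstream of CHEK1, fell by 0.35 ± 0.047 on the log2 scale. So within each kinase pair the downstream gene had the lower log2 fold change.

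All 5 genes of the BRCA complexes fell. BARD1 (chromosome 2, 214725646 to 214809683), the partner that forms a ubiquitin ligase with BRCA1, was at 20.2 and 22.5 CPM and then at 3.06 and 2.99 CPM, 7.04-fold lower (-2.82 ± 0.12 SE; edgeR adjusted p = 1.74e-31). BRIP1, a helicase that binds BRCA1, went from 29.6 and 29.7 CPM to 5.37 and 4.3 CPM (-2.60 ± 0.095 SE; edgeR adjusted p = 7.86e-35). BRCA1 itself fell by 1.39 ± 0.056 on the log2 scale, from 68 and 71.3 CPM to 25.5 and 27.8 CPM. BRCA2, which loads the recombinase, fell by 1.74 ± 0.088, from 32.4 and 31.2 CPM to 9.04 and 10.1 CPM. PALB2, the link between BRCA1 and BRCA2, moved least, from 32.1 and 27.9 CPM to 27.7 and 25.3 CPM (-0.18 ± 0.068 SE). The VXN libraries lay below the DMSO libraries for all 5 genes.

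All 6 genes of strand exchange fell as well. RAD51AP1 (chromosome 12, 4538890 to 4560047), which helps the recombinase pair with its template, went from 36.3 and 39.1 CPM to 6.29 and 5.82 CPM, 6.19-fold lower (-2.63 ± 0.085 SE; edgeR adjusted p = 1.37e-37). The motor gene RAD54L went from 29.1 and 28.6 CPM to 7.17 and 9.22 CPM, and its relative RAD54B from 15.9 and 17.7 CPM to 7.08 and 7.14 CPM. Among the recombinase paralogs, XRCC2 fell by 1.86 ± 0.076, XRCC3 by 1.26 ± 0.075 and RAD51C by 0.73 ± 0.091 on the log2 scale. RAD51C was at 17 and 16.9 CPM under DMSO and 9.92 and 10.6 CPM under VXN.

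In the Fanconi pathway, both genes of the ubiquitin target pair fell. FANCI went from 266 and 260 CPM to 67.9 and 69.9 CPM (-1.93 ± 0.038 SE), and FANCD2 (chromosome 3, 10026437 to 10101932) from 49 and 49.2 CPM to 13.8 and 14.5 CPM (-1.79 ± 0.064 SE). Of the 7 genes of the core complex and its anchor 6 fell and 1 was not called. The core gene FANCG went from 36.2 and 36.8 CPM to 10.2 and 11.2 CPM, and FANCM, the anchor that finds stalled forks, from 8.15 and 7.04 CPM to 2.71 and 1.98 CPM. FANCA fell by 1.18 ± 0.053, the ubiquitin ligase gene FANCL by 0.82 ± 0.058 and FANCC by 0.79 ± 0.067. FANCF, the adaptor of the core, fell by 0.32 ± 0.061. FANCE, which contacts FANCD2, was not called, at 12.5 and 12.6 CPM against 11.1 and 10.9 CPM (-0.19 ± 0.092 SE; edgeR adjusted p = 0.0694).

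The genes that undo joined molecules held both extremes of the set. RMI2 (chromosome 16, 11345459 to 11351760), a small subunit of the complex that dissolves crossed strands, was at 40.2 and 40.9 CPM under DMSO and 4.94 and 4.91 CPM under VXN. This was 8.22-fold lower, the largest fall of the 35 (-3.04 ± 0.091 SE; edgeR adjusted p = 1.52e-39). BLM, the helicase of that complex, went from 46.6 and 49.1 CPM to 8.61 and 9.52 CPM, and RMI1 from 27 and 28 CPM to 9 and 10 CPM. MUS81 (chromosome 11, 65859674 to 65867653), the nuclease that cuts crossed strands, was higher, from 53.7 and 56 CPM to 80.1 and 74.4 CPM (0.50 ± 0.048 SE; edgeR adjusted p = 2.45e-14). Its partner EME1 was not called, at 18.9 and 19.3 CPM against 18.6 and 17.8 CPM. POLQ, the polymerase of an end joining route that serves where recombination is absent, went from 43.6 and 42.1 CPM to 12.7 and 13.7 CPM.

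DESeq2 called 30 of the 35, 28 lower and 2 higher, and its share of all genes is not given here. The call of RAD50 was lost with DESeq2 (adjusted p = 0.293), with no count filter (0.0605), and without HT29 DMSO replicate 2 or HT29 VXN replicate 1. RMI2, BARD1, RAD51AP1, BRIP1, EXO1, CHEK1, MUS81 and ATM kept their calls under the alternatives tried. The calls of the other members were not followed one by one. The authors' deposited table called 28 members, 26 lower and 2 higher, all in the same direction as here, and its 2 higher genes were ATM and MUS81. NBN, PALB2 and FANCF, lower here, and RAD50, higher here, were not called in it, nor were RBBP8, FANCE and EME1.

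**Figure D2:**
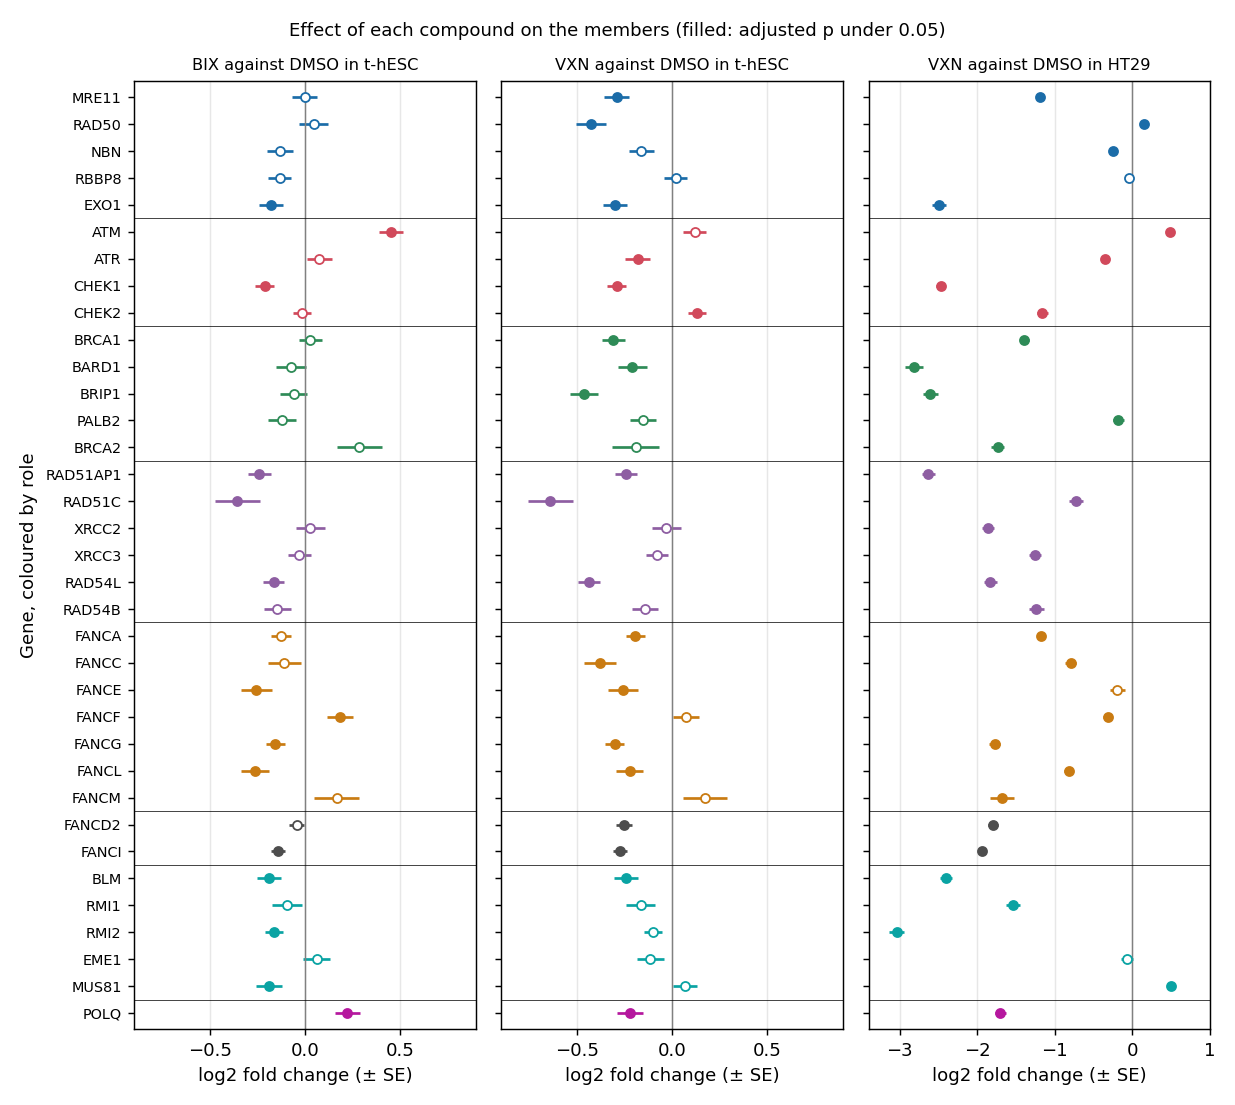
Log2 fold change (± SE, 2 libraries a group) of each member under BIX in t-hESC, VXN in t-hESC and VXN in HT29, with filled points for an adjusted p under 0.05. The HT29 panel has a wider axis, and its values run from -3.04 to 0.50 where those of VXN in t-hESC run from -0.64 to 0.17.

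The other genes of the cycle and of repair are given as counts from lists. Of 34 genes of replication and G1/S all 34 fell in HT29 under VXN, with a median of -2.25, and the helicase subunit MCM4 fell by 2.62 ± 0.04. All 28 genes of G2/M and mitosis fell, with a median of -2.26, and TOP2A, the topoisomerase of dividing cells, fell by 2.62 ± 0.034. Among 25 targets of p53, 11 rose and 8 fell, and the cell cycle inhibitor gene CDKN1A rose by 3.25 ± 0.062. Of 53 other Fanconi and recombination genes 34 fell and 10 rose, with a median of -0.44. CLSPN, an activator of CHEK1, fell by 2.37 ± 0.075, and RPA1, which coats single-stranded DNA, by 1.23 ± 0.04. Of 20 genes of end joining and of the choice of route 14 fell and 2 rose, with a median of -0.40, and H2AX, the histone variant that marks breaks, fell by 1.68 ± 0.0425. The part of these cycle lists in the fall of the members was not tested. The summed level of the pluripotency markers was 13.4 to 14.8 CPM in HT29 under DMSO and 15.8 to 19.3 CPM under VXN, against 5219 to 5235 CPM in t-hESC under VXN. The summed level of the colorectal markers was 10850 to 10890 CPM under DMSO and 8207 to 8225 CPM under VXN, with 13 and then 11 of the 15 above 1 CPM. Within that list the means of KRT8 and KRT18, the highest, went from 5416 to 3566 CPM and from 3220 to 2217 CPM. VIL1, KRT19, EPCAM and MUC13 were also lower under VXN, and TFF3 went from 5.27 to 0.345 CPM. The mean of KRT20 went the other way, from 249.4 to 703 CPM, as did that of CEACAM5, from 5.53 to 48 CPM, and that of CEACAM6. The summed fibroblast and stroma markers were at 4.56 to 5.93 CPM under DMSO and 11.3 to 13.8 CPM under VXN. The part of these markers in the members' values was not tested.

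VXN in t-hESC moved the members less. Of the 35 members 20 fell, 1 rose and 14 were not called, where 14.6% of all genes fell and 14.5% rose (29% called). The median was -0.21 over the members and 0.0036 over all genes. A change of at least 2-fold was called for 0 members and for 0.529% (lower) and 1.53% (higher) of all genes. The count of 0 thus lies near the background. Summed over the members, the level was 1631 and 1624 CPM in the DMSO libraries and 1450 and 1411 CPM in the VXN libraries. The lowest log2 fold change was that of RAD51C (chromosome 17, 58692573 to 58735611), at 11.1 and 10.1 CPM under DMSO and 7.35 and 6.26 CPM under VXN (-0.64 ± 0.12 SE; edgeR adjusted p = 1.51e-05).

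BRIP1 followed, from 29.6 and 27.7 CPM to 21.1 and 20.4 CPM (-0.47 ± 0.075 SE; edgeR adjusted p = 9.54e-07). RAD54L went from 62 and 65.5 CPM to 47.3 and 46.9 CPM (-0.44 ± 0.056 SE; edgeR adjusted p = 2.9e-09). RAD50, higher under VXN in HT29, fell here from 24 and 23 CPM to 17.4 and 17.5 CPM (-0.43 ± 0.078 SE; edgeR adjusted p = 1.15e-05). For each of these genes both VXN libraries lay below both DMSO libraries. FANCC fell by 0.38 ± 0.086 and BRCA1 by 0.31 ± 0.061 on the log2 scale. FANCD2 and FANCI fell by 0.25 ± 0.041 and 0.28 ± 0.037, and of the 7 genes of the core and anchor 5 fell. CHEK1 fell by 0.29 ± 0.05, and EXO1, MRE11 and FANCG by 0.30, 0.29 and 0.30. The single rise was CHEK2, from 85.8 and 81.6 CPM to 91.1 and 92.1 CPM (0.13 ± 0.047 SE; edgeR adjusted p = 0.0266). Not called were ATM, NBN, RBBP8, PALB2, BRCA2, XRCC2, XRCC3, RAD54B, FANCF, FANCM, RMI1, RMI2, EME1 and MUS81. RMI2, with the largest fall in HT29, was at 109 and 106 CPM and then 106 and 94.6 CPM here, with 1 VXN library near the DMSO libraries and the other lower.

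In the same cells 31 of 34 replication and G1/S genes fell, with a median of -0.41, and 17 of 28 genes of G2/M and mitosis fell and 1 rose, with a median of -0.15. Among the 53 other Fanconi and recombination genes 17 fell and 1 rose, with a median of -0.095, and the nuclease gene DNA2 fell by 0.46 ± 0.06. Of the 20 end joining genes 7 fell and 2 rose. Of the 25 targets of p53 19 rose and 1 fell, with a median of 0.25, and CDKN1A rose by 0.99 ± 0.046 and GDF15, a secreted stress factor, by 2.15 ± 0.072. The summed pluripotency markers were at 5800 to 5898 CPM under DMSO and 5219 to 5235 CPM under VXN. The summed fibroblast and stroma markers were at 1489 to 1499 CPM under DMSO and 1699 CPM in both VXN libraries. Of these 12 markers 8 were above 1 CPM under DMSO and 6 under VXN. Within that list the mean of THY1 went from 587 to 856 CPM and that of COL1A1 from 33.2 to 37.5 CPM. Those of VIM and SPARC went from 550 to 510 CPM and from 261 to 239 CPM, and COL1A2 and PDGFRB were also lower. The part of the cycle, p53 and marker lists was not tested here. The rise of CHEK2 was lost with DESeq2 (adjusted p = 0.216), upper-quartile factors (0.0739), no count filter (0.0741), without t-hESC DMSO replicate 2 (0.34), and without either VXN library (0.0537 and 0.107). DESeq2 called 13 members, all lower, and the authors' deposited table called 7, all lower (BRCA1, RAD51C, RAD54L, FANCC, FANCG, FANCD2 and FANCI).

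The difference between the lines was tested directly, as the VXN effect in HT29 minus that in t-hESC. It was lower in HT29 for 25 members, higher for 3 and not called for 7, where 20.3% of all genes were lower and 22.9% higher (43.2% called). The difference was -2.94 ± 0.10 (SE) for RMI2, -2.6 ± 0.15 for BARD1, -2.39 ± 0.11 for RAD51AP1 and -2.19 ± 0.11 for EXO1. It was 0.59 ± 0.092 for RAD50 (edgeR adjusted p = 1.87e-07), 0.43 ± 0.08 for MUS81 and 0.37 ± 0.08 for ATM. The 7 genes not called were NBN, RBBP8, ATR, PALB2, RAD51C, FANCE and EME1. For RAD51C the difference was -0.084, with a 95% interval from -0.39 to 0.22, and for PALB2 it was -0.024, from -0.218 to 0.171. Across the 35 members the VXN effects in the lines, which share no library, had a Spearman's rho of 0.314, and across all genes tested rho was 0.22. The genes are not independent replicates.

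**Figure D3:**
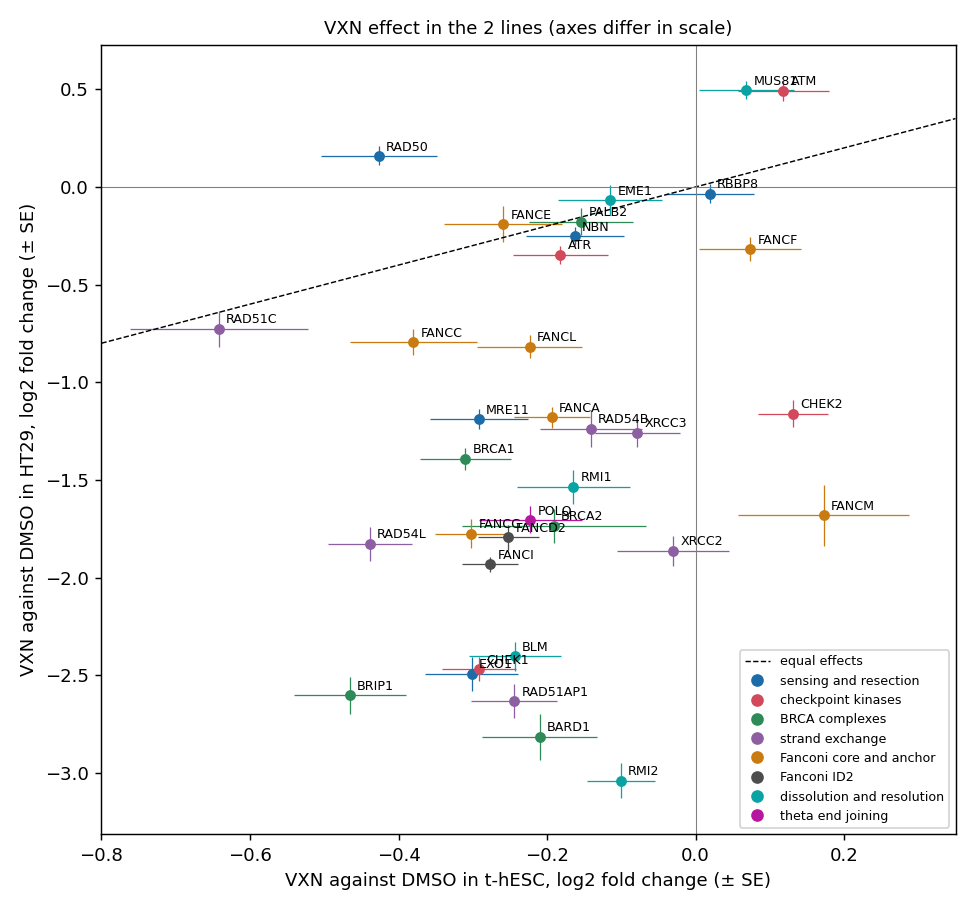
VXN effect on each member in t-hESC (horizontal) and in HT29 (vertical), as log2 fold change ± SE from 2 libraries a group, with role given by colour and a dashed line of equal effects. The axes differ in scale, most points lie far below the line, and RAD50, MUS81 and ATM lie clearly above it.

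BIX at 1 µM moved fewer members in t-hESC. Of the 35 members 12 fell, 3 rose and 20 were not called, where 12.2% of all genes fell and 10.9% rose (23.1% called). The median was -0.11 over the members and 0.0015 over all genes. A change of at least 2-fold was called for 0 members and for 0.164% (lower) and 0.867% (higher) of all genes, so the 0 lies near the background. ATM rose most, from 34.1 and 35 CPM to 46.6 and 48.4 CPM (0.45 ± 0.061 SE; edgeR adjusted p = 1.54e-08), with both BIX libraries above both DMSO libraries. POLQ went from 32.6 and 30.8 CPM to 36.3 and 37.6 CPM (0.22 ± 0.067 SE; edgeR adjusted p = 0.00942), and FANCF from 30 and 29.8 CPM to 35.1 and 32.7 CPM (0.18 ± 0.07 SE; edgeR adjusted p = 0.0487).

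The lower genes came from several roles. RAD51C went from 11.1 and 10.1 CPM to 8.63 and 7.84 CPM (-0.36 ± 0.12 SE; edgeR adjusted p = 0.0201), and FANCL from 31.8 and 34.3 CPM to 27 and 28.2 CPM (-0.26 ± 0.073 SE; edgeR adjusted p = 0.0045). FANCE fell by 0.26 ± 0.082, RAD51AP1 by 0.24 ± 0.06, CHEK1 by 0.21 ± 0.051 and BLM by 0.19 ± 0.063 on the log2 scale. The other members that fell were EXO1, RAD54L, FANCG, FANCI, RMI2 and MUS81, by 0.14 to 0.19. None of the 5 genes of the BRCA complexes was called, and BRCA2 was at 11.8 and 8.23 CPM against 11.4 and 12.8 CPM, with libraries that overlapped. Of 34 replication and G1/S genes 28 fell, with a median of -0.27. Of 28 genes of G2/M and mitosis 12 fell and 3 rose, with a median of -0.093. Among the 25 p53 targets 11 were higher and 2 lower, with a median of 0.13. The summed pluripotency markers were at 5737 to 5825 CPM under BIX, and the fibroblast and stroma markers at 1632 to 1674 CPM. The part of these lists was not tested. Of 53 other Fanconi and recombination genes 14 fell and 3 rose, and SLX4, a scaffold of nucleases, rose by 0.55 ± 0.083. Of 20 end joining genes 6 rose and 5 fell. PRKDC, the large kinase of end joining, rose by 0.42 ± 0.032, and XRCC6, a subunit of the end-binding protein Ku, fell by 0.32 ± 0.029.

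DESeq2 called 3 members under BIX, 1 higher and 2 lower, and with it the calls of POLQ, FANCF, RAD51C, FANCL, FANCE, RAD51AP1 and BLM were lost, while ATM and CHEK1 kept theirs. Without t-hESC DMSO replicate 2 there were 8 calls and without t-hESC BIX replicate 1 there were 9. Single calls were lost without t-hESC DMSO replicate 1 (FANCF, RAD51C, FANCE and BLM), without DMSO replicate 2 (POLQ, FANCF and FANCL), without BIX replicate 1 (FANCF, FANCL, FANCE and BLM) and without BIX replicate 2 (POLQ and RAD51C). The call of FANCF was also lost with no count filter (edgeR adjusted p = 0.126) and without any 1 of the 4 HT29 libraries (0.0549 to 0.0615). The authors' deposited table called 1 member, ATM, as higher. Across genes, which are not independent replicates, the log2 fold change under BIX and the span of the gene on the genome had a Spearman's rho of 0.317 over the 35 members and 0.171 over 17504 genes. The median was -0.16 over the 17 members shorter than the median span of 65 kb and -0.053 over the 18 others. ATM spans 146 kb, POLQ 115 kb and FANCF 3.29 kb. Under VXN in t-hESC rho was -0.225 over the members and -0.0435 over all. The part of span in the BIX result was not tested.

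**Figure D4:**
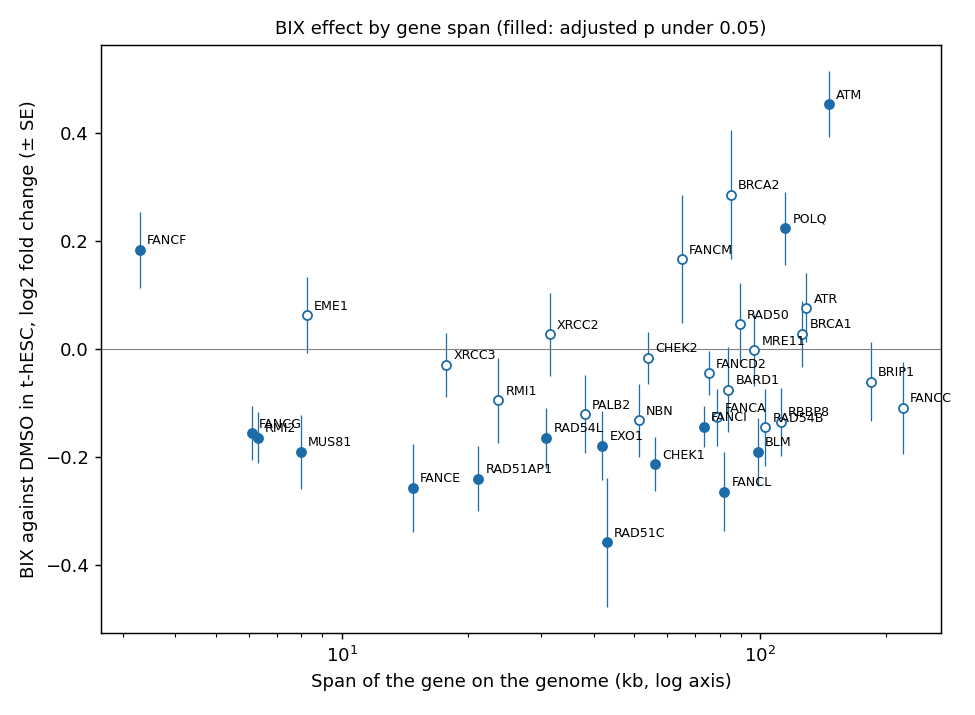
BIX effect in t-hESC (log2 fold change ± SE, 2 libraries a group) of each member against the span of the gene in kb on a log axis, with filled points for an adjusted p under 0.05. ATM stands above all others at 0.45, and FANCF, at 0.18, is the shortest gene.

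Both t-hESC comparisons above share their DMSO libraries, so the compounds were also set against each other, at doses that differ (10 µM and 1 µM), and compound and dose cannot be told apart. Under VXN 13 members were lower than under BIX and 2 were higher, where 11.2% of all genes were lower and 11.6% higher (22.7% called). RAD50 was at 17.4 and 17.5 CPM under VXN and 23.9 and 24.6 CPM under BIX (-0.47 ± 0.082 SE; edgeR adjusted p = 7.08e-06). The difference was -0.45 ± 0.071 (SE) for POLQ, -0.40 ± 0.08 for BRIP1, -0.34 ± 0.065 for BRCA1 and -0.34 ± 0.061 for ATM. BRCA2 differed by -0.48 ± 0.13, a call lost without t-hESC BIX replicate 2 (edgeR adjusted p = 0.0666). MUS81 and CHEK2 were higher under VXN, by 0.26 ± 0.07 and 0.15 ± 0.049, and neither was called by DESeq2 (adjusted p = 0.0528 and 0.22). CHEK2 also lost its call with upper-quartile factors (0.0585) and without t-hESC BIX replicate 2 (0.135) or t-hESC VXN replicate 2 (0.0783).

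The lines also differed before treatment. Under DMSO 18 members were higher in HT29 than in t-hESC, 13 were lower and 4 were not called. Of all genes 38.9% were higher and 45.6% lower (84.4% called), so the count of members called lies near the background. The median of all genes was at -0.12 in this comparison and at -0.23 with upper-quartile factors, under which 16 members were higher and 14 lower, so differences near 0.1, as for CHEK1 (0.10) and BLM (0.12), lie within the shift.

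BRCA2 had the largest difference of the members higher in HT29. It was at 32.4 and 31.2 CPM in HT29 and 11.8 and 8.23 CPM in t-hESC (1.68 ± 0.089 SE; edgeR adjusted p = 7.81e-26). The 3 genes of the end-binding complex were all higher in HT29, RAD50 by 1.29 ± 0.059, MRE11 by 1.23 ± 0.053 and NBN by 1.2 ± 0.053. ATR was higher by 1.12 ± 0.052 and FANCC by 0.86 ± 0.068. Lower in HT29 were RMI2, at 40.2 and 40.9 CPM against 109 and 106 CPM (-1.41 ± 0.05 SE; edgeR adjusted p = 5.51e-36), and FANCD2, at 49 and 49.2 CPM against 121 and 123 CPM (-1.31 ± 0.044 SE). Also lower were CHEK2 (-1.17 ± 0.051 SE), RAD54L (-1.15 ± 0.058), FANCG (-1.06 ± 0.051) and RAD54B (-0.93 ± 0.072). FANCI, the partner of FANCD2, was higher in HT29 by 0.65 ± 0.034, so the pair differed in opposite directions. Not called were BRIP1, PALB2, FANCA and RMI1.

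Under VXN 23 members were lower in HT29 than in t-hESC, 10 were higher and 2 were not called, where 45.5% of all genes were lower and 40.9% higher (86.4% called). The largest differences were those of RMI2 (-4.34 ± 0.079 SE), BARD1 (-2.97 ± 0.12), FANCD2 (-2.85 ± 0.059), RAD51AP1 (-2.82 ± 0.087), EXO1 (-2.56 ± 0.091) and RAD54L (-2.54 ± 0.082). RAD50 was higher in HT29 by 1.88 ± 0.065, MUS81 by 1.14 ± 0.055, NBN by 1.11 ± 0.058, ATR by 0.95 ± 0.058, ATM by 0.73 ± 0.055 and RBBP8 by 0.61 ± 0.055. The authors' deposited table called 31 members in this comparison, 23 lower and 8 higher, all in the same direction as here. Over the 5 groups, HT29 under VXN had the lowest mean for 23 members and HT29 under DMSO the highest for 18.

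**Figure D5:**
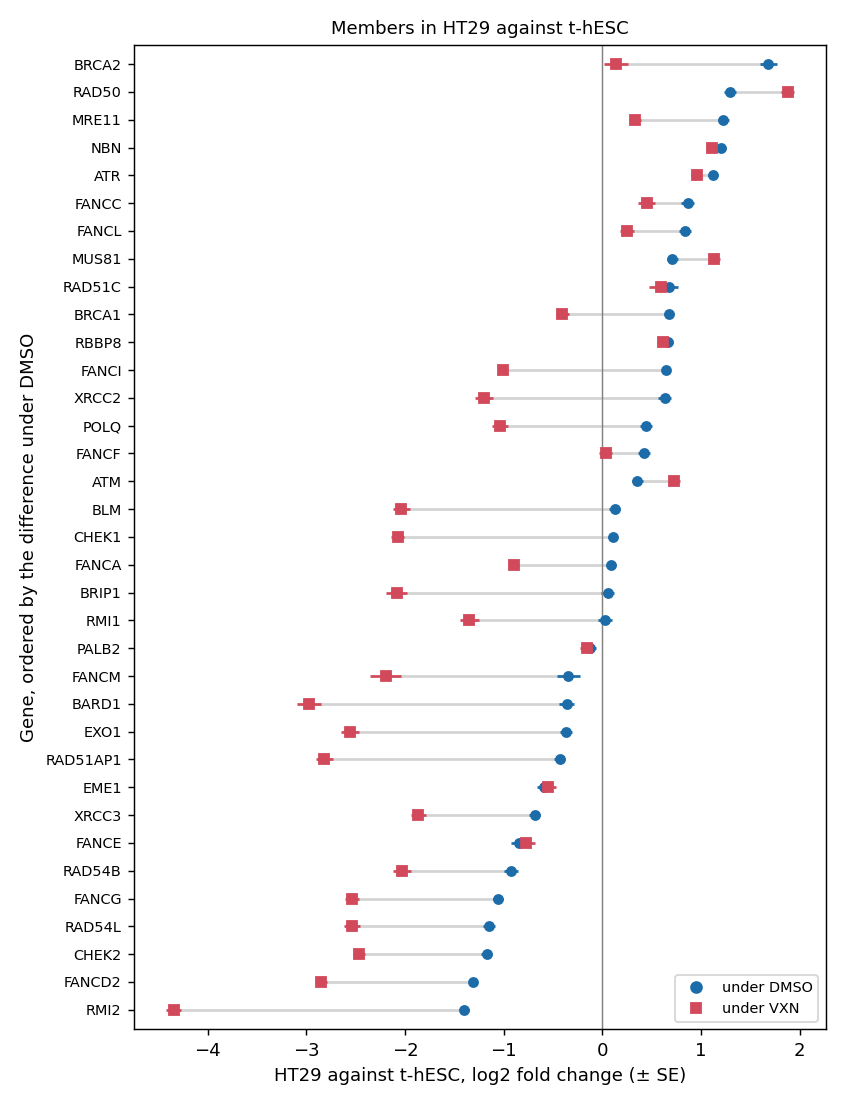
Difference of each member between HT29 and t-hESC (log2 fold change ± SE, 2 libraries a group) under DMSO (circles) and under VXN (squares), ordered by the value under DMSO. The squares of most genes lie far to the left of their circles, RMI2 farthest at -4.34, and those of RAD50, MUS81 and ATM lie clearly to the right.

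Several members start close to a gene on the other strand, and their neighbours were read in the same libraries. Of 15 members with such a start within 1000 bases upstream or 300 bases inside, 11 had a neighbour that passed the filter, 12 neighbours in all. In HT29 under VXN 4 of these neighbours fell, 5 rose and 3 were not called, where 26.9% of all genes fell and 33% rose. Their median was 0.087, and that of those members was -1.26. NBR2, a long noncoding RNA gene that starts 193 bases from a start of BRCA1, rose by 2.21 while BRCA1 fell by 1.39. NPAT, a histone gene activator 429 bases from ATM, fell by 0.49 while ATM rose by 0.49. ANKRD49, 140 bases from MRE11, rose by 0.62, and HSCB, 212 bases from CHEK2, rose by 0.36, while both members fell. Other neighbours fell with their member. HNRNPK, 144 bases from RMI1, fell by 0.67 where RMI1 fell by 1.54, and ZFYVE21, 359 bases from XRCC3, fell by 0.76 where XRCC3 fell by 1.26. The kit does not mark strand, and 23 of the 35 members overlap another annotated RefSeq gene, 15 of them a coding gene, so reads in the shared stretches cannot be told apart by strand. These include ATM with C11orf65, FANCD2 with FANCD2OS, XRCC3 with KLC1, FANCC with AOPEP, FANCA with ZNF276 and RMI2 with a long noncoding RNA gene over its full span. Some neighbours named above also overlap their member. NBR2 shares 28115 bases with BRCA1, ANKRD49 5595 with MRE11, and HNRNPK, at up to 1020 CPM, 257 with RMI1. EME1 overlaps LRRC59, at up to 317 CPM, and FANCI overlaps POLG, at up to 128 CPM. The part of shared reads in these values was not tested. CHEK2 and FANCD2 also have pseudogene copies, whose own rows reached at most 0.338 CPM, and the handling of shared reads is not stated in the sources used here.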

How the data were processed

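The deposited table holds raw counts per gene, and 10 columns matched sample titles, while 4 others matched no sample and were not used. Tools listed in the submitters' processing notes, without roles, are STAR, DESeq2 1.34.0, fastp 0.20.1 and FastQC 0.11.9, with the builds GRCh38 and hg38. The counting program is not stated in the sources used here. The authors deposited tables with log2 fold changes and adjusted p-values, used only for calls of the members. The share of all genes called in them was not computed, so those counts have no background. Here 1181 repeat families (3.52 to 5.64% of counts) were left out. Counts were fitted in edgeR 4.0.16 (R 4.3.3) with TMM factors, filterByExpr at a minimum count of 10 and the robust quasi-likelihood test over all 10 libraries (5 residual degrees of freedom), adjusted over all 22495 genes. In the edgeR fit the spread of each gene was drawn towards that of other genes, with a median of 56.7 prior degrees of freedom. The SEs and p-values rest on that shared spread. DESeq2 1.42.0 was an alternative. Replicates are described by the series as biological, and p-values reflect the spread of these libraries alone. Full statistics go, per comparison, to up to 6 called members in each direction with the largest change and a mean of at least 1 CPM, and to up to 3 genes of each other list. The other lists are given by counts, and not every gene of that rule is named. The members, lists and rule were chosen with earlier results of these data known. Spans, neighbours and promoters came from RefSeq tables (GRCh38.p14), chosen as measures after the data were seen.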

Additional observations from a re-analysis of the deposited data

Results flagged for a closer look

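The VXN effect differed between HT29 and t-hESC, by an edgeR test of the difference itself, for 28 of the 35 members, where 43.2% of all genes differed. Values are log2 differences, HT29 minus t-hESC. Among genes of break sensing, trimming and the checkpoint they were -0.896 for MRE11, 0.585 for RAD50, -2.19 for EXO1, 0.374 for ATM, -2.18 for CHEK1 and -1.29 for CHEK2. For the BRCA complexes they were -1.08 for BRCA1, -2.6 for BARD1, -2.14 for BRIP1 and -1.54 for BRCA2. The strand exchange genes had -2.39 for RAD51AP1, -1.83 for XRCC2, -1.18 for XRCC3, -1.39 for RAD54L and -1.10 for RAD54B. Fanconi core genes had -0.985 for FANCA, -0.414 for FANCC, -0.392 for FANCF, -1.47 for FANCG, -0.594 for FANCL and -1.85 for FANCM, and FANCD2 and FANCI had -1.54 and -1.66. Among the genes that undo joined molecules the values were -2.16 for BLM, -1.37 for RMI1, -2.94 for RMI2 and 0.429 for MUS81, and POLQ had -1.48. Groups of 2 libraries allow no test for outlying samples.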

How the results depend on the processing

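With DESeq2 the number of members called was 3 in place of 15 under BIX and 13 in place of 21 under VXN in t-hESC, and the number of all genes called was 2822 under BIX, 3574 under VXN in t-hESC and 2557 for VXN against BIX, against 5199, 6531 and 5110 with edgeR; the cause was not tested. Leaving out 1 library gave 8 to 15 members called under BIX, with 8 without t-hESC DMSO replicate 2 and 9 without t-hESC BIX replicate 1. It gave 16 to 22 members under VXN in t-hESC, 31 to 33 under VXN in HT29, and 28 under each omission for the test of unequal effects in the lines. The numbers of members and of all genes called were within 1.5 times the reported ones under the other alternatives tried. Only the members picked by the rule for full statistics were followed one by one. Of their values under an alternative 42 lost the call, 1080 kept it and 0 changed direction. With the replicate number as a block, 13 members were called under BIX, 21 under VXN in t-hESC, 32 under VXN in HT29 and 28 for the unequal effects. The rise of FANCF under BIX lost its call there (edgeR adjusted p = 0.0788). No shift shared by replicate number was seen, with correlations of deviations between groups from -0.0318 to 0.0263. These values cannot tell whether the samples were prepared in pairs. With 1 library left in a group, it is assumed to vary like the other groups.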
